A study of Mus musculus with 52 samples.

Results

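The comparison set ciliated against non-ciliated Cilia-APEX-IMCD3 cells that were homozygous mutant for Wdr60. It took 8 of the 52 RNA sequencing libraries of the series, namely the 4 libraries labelled as ciliated and the 4 labelled as non-ciliated Wdr60 mutant. The libraries were taken by their labels, with earlier results of these data known. The study edited single bases of dynein-2 genes in a mouse inner medullary collecting duct line and asked how RNA levels of mutant and control clones compared in cells with and without cilia. IMCD3 cells are kidney epithelial cells that grow a primary cilium, and the Cilia-APEX line carries in addition a peroxidase directed to the cilium. The 52 libraries came from 13 clones counted separately in each state, with 4 technical replicate libraries from each.

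The mutant cells were made with the cytosine base editor BE4-Gam and a guide against Wdr60, and carried the allele p.Ala911Val by the study's methods. The study also reports an unintended heterozygous C-to-T change shortly downstream of the target base, which is synonymous. The labels of the libraries give the homozygous state and the presence or absence of cilia, but not the allele. Control cells (4 ciliated clones, D8, H12, A4 and G7, and 4 non-ciliated clones, AB, 1, 2 and 3) received the editor with a guide vector that held no target, so that all groups carried the peroxidase transgene and had been through transfection and growth from single sorted cells. By the methods, cilia were induced with 0.2% serum for 50 h, while the labels give 10% serum for all libraries. Non-ciliated RNA was sequenced before 1 of the Wdr34 mutants had been obtained, and no sequencing date is given in the labels. Cilia, serum and any difference in time of sequencing therefore cannot be told apart here, and the difference is called the state difference throughout. Each state of the mutant is 1 clone, and whether it was the same isolate in both states is not in the labels. P-values measure the spread between technical replicate libraries of these clones, and fewer cells of a type cannot be told apart from less RNA per cell.

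Wdr60 is an intermediate chain of cytoplasmic dynein-2, the motor that returns intraflagellar transport (IFT) trains from the tip of the cilium to its base. The other subunits are the heavy chain Dync2h1, the second intermediate chain Wdr34, the light intermediate chain Dync2li1 and light chains, several of which are shared with other dyneins. Cultured kidney cells build a cilium when they leave the cell cycle, and withdrawal of serum is the usual way to bring this about. Loss of serum growth factors is known to silence immediate early genes and G1 cyclins, and to release FoxO transcription factors, which induce genes of the fasted state.

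The guide target is shown because it places the edited codon. It lies on the minus strand at chr12:116211807-116211828 (GRCm38) in exon 21 of 22 of Wdr60, within the coding sequence. The capital C is the target base, the 5th base of the 19-base protospacer and coding position 2732 in codon 911 (GCA), and the final capitals are the adjacent motif that the editor's Cas9 needs.
Wdr60 guide target: cctgCagtgttcctggtccAGG

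Wdr60 RNA itself was measured at 25.9, 33.99, 31.3 and 31.9 CPM (counts scaled to a common library size with TMM factors) in non-ciliated libraries 1 to 4 and at 18.9, 18.8, 22.7 and 22.9 CPM in ciliated libraries 1 to 4. The 2 sets of libraries did not overlap, and the log2 fold change of -0.56 (ciliated over non-ciliated, SE 0.128, adjusted p = 0.00493, edgeR quasi-likelihood F test) stayed under the fold limit set for a call. A gene was called where its Benjamini-Hochberg adjusted p lay under 0.05 and its level differed 2-fold or more between the states. In control clones the log2 fold change of Wdr60 was -0.021 (adjusted p = 0.9303). A base edit need not alter the level of an RNA, so these values do not check the genotype, and sequence reads were not analysed here.

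Library totals ran from 16092399 to 19779438 counts, so 1 CPM stood for 16.1 to 19.8 counts. No 2 replicate libraries were identical, and the chi-square per degree of freedom between replicates was 4.23 to 104. The libraries of each state were divided into 2 kinds by how a gene's deviation from the mean of the other 3 libraries of its state followed its GC content. These deviations cancel within a state, so both signs occur in each state in part by construction. A shared sign alone does not show that libraries share a GC behaviour. In non-ciliated library 1 and ciliated libraries 1 and 2 the deviation fell with GC (Spearman rho across genes -0.65, -0.45 and -0.65), and in the other 5 it rose (0.46 to 0.69). Non-ciliated library 1 had 507 genes more than 1 log2 unit from the mean of the other 3 of its state, against 66 to 104 in those 3. It had 867 CPM of the ribosomal RNA precursor Rn45s against 3692 to 9712 CPM. Ciliated library 2 deviated at 439 genes, against 87 to 227 in its companions, and the chi-square of 104 was that between ciliated libraries 2 and 3. Some results below are given with and without these libraries.

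**Figure D1:**
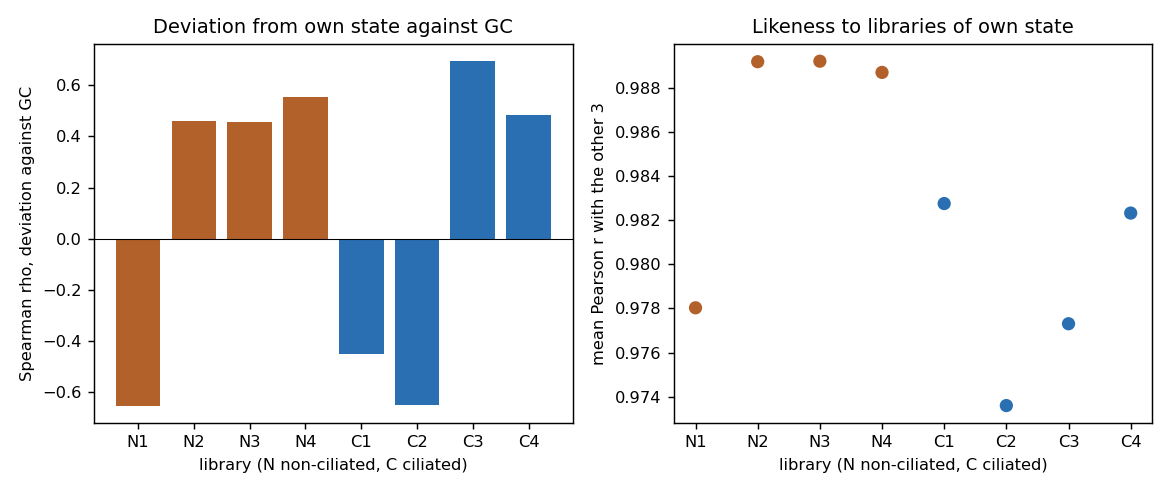
Left, Spearman rho (unitless) across genes between a library's deviation from the mean of the other 3 of its state and GC content, for each of the 8 Wdr60 libraries (N non-ciliated, C ciliated). Right, mean Pearson r of each library's log2 CPM with the other 3 of its state, on an axis that does not start at 0. Libraries N1, C1 and C2 have rho below 0, and N1 has the lowest likeness of the non-ciliated set, 0.978 against 0.989.

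Of 24421 symbols, 11915 passed the expression filter, and 1112 (9.33%) were called higher and 687 (5.77%) lower in ciliated than in non-ciliated Wdr60 cells. These 2 shares are the background for the mutant's counts in each gene list below, and a list whose share is near them shows nothing about its members. List counts in control clones have another background, 2.49% of genes called higher and 2.03% lower there. The filter set a limit of 0.575 CPM, and 106 of the 1112 higher genes were under it in every non-ciliated library and 62 of the 687 lower genes in every ciliated one. Such genes passed only through the state in which they were high and so had to differ. The filter asked for this limit in as many libraries as a state has. Genes above it in some but not all libraries of their lower state therefore also passed only through the other state. The counts of 106 and 62 are thus lower bounds. Called list members under the limit in every library of their lower state are named or counted beside their list, and further members may be affected. Without the non-ciliated library 1 the counts were 1091 and 667, of which 998 and 605 were among the calls made with all 8 libraries. With only the 5 libraries whose deviation rose with GC, an alternative added after the data were seen, they were 1185 and 778, of which 985 and 571 were shared with the calls from all libraries. The log2 fold change correlated with GC content at a Spearman rho of 0.16 across 11845 genes. At an adjusted p under 0.05 with no fold limit, 47.4% of all tested genes differed, and for 46.1% the libraries of the 2 states did not overlap, so that separation of the libraries alone is common in these data.

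The 10 most raised and 10 most lowered genes were taken from called genes with a mean of at least 5 CPM and no overlap between the states, so that neither their call nor their separation is a finding. Among them, the glutathione S-transferase Gsta3 had 0, 0.0568, 0.237 and 0.126 CPM in non-ciliated libraries 1 to 4 and 12.4, 10.97, 16.4 and 15.9 CPM in ciliated libraries 1 to 4. The non-ciliated values rest on 7 counts in all and the ciliated on 1035, and the fitted log2 fold change was 6.94. Gsta3 was under the filter limit in every non-ciliated library and so had to differ, and no p-value is given for it. Cldn8, a claudin of the distal nephron and collecting duct, was measured at 0.255, 0.625, 0.414 and 0.253 CPM without cilia and 34.4, 41.8, 32.3 and 26.8 CPM with them. Its fitted log2 fold change was 6.40. Cldn8 was above the filter limit in only 1 non-ciliated library, so it passed only through the ciliated libraries and had to differ. No p-value is given for Cldn8 either. The others of the 10 most raised genes were Gc (vitamin D binding protein), Ggt1 (gamma-glutamyltransferase), Nrep, Mylk (myosin light chain kinase), Hsd17b14, Cbs (cystathionine beta-synthase), Lrrc9 and Ehf (an epithelial ETS factor). Their log2 fold changes ranged from 4.54 in Ehf to 6.16 in Gc.

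On the lowered side, the mesenchymal intermediate filament gene Vim went from 224, 160.1, 186 and 189.9 CPM in the 4 non-ciliated libraries to 8.197, 10.6, 11.4 and 8.38 CPM in the 4 ciliated libraries. The log2 fold change was -4.30 (SE 0.163, adjusted p = 1.86e-07). Ccnd1, the G1 cyclin D1 that serum growth factors induce, had 316, 257, 364 and 304 CPM and then 19.3, 18.3, 20.7 and 20.4 CPM. That is 15.8-fold less in ciliated cells (log2 fold change -3.98, SE 0.132, adjusted p = 1.28e-07). The largest fall among these genes was that of the serpin Serpinb9b (log2 fold change -4.95, 4703 counts without and 171 with cilia). Tigit, Fosb, Fos, Ly6a, Rgs16 (a regulator of G protein signalling), Ebf1 and the histone gene Hist1h3c completed the 10 most lowered, between -4.62 and -3.40.

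**Figure D2:**
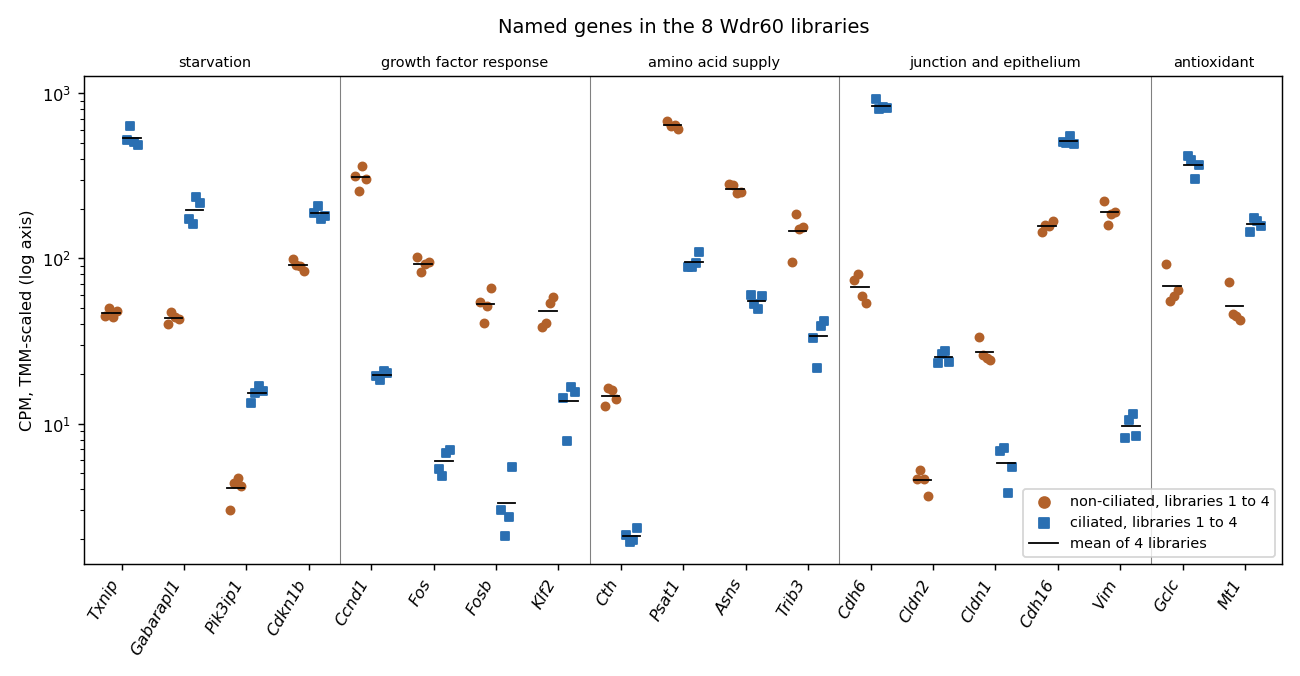
Level in CPM (log axis) of 19 named genes, 1 point for each library, with circles for the 4 non-ciliated and squares for the 4 ciliated Wdr60 libraries in library order and a black line at the mean. The points of the 2 states lie apart, which for the most raised and most lowered genes (here Ccnd1, Fos, Fosb and Vim) was a condition of their choice.

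Few genes of the machinery that builds the cilium were called. None of the 10 dynein-2 subunits tested was called by edgeR (7 at an unadjusted p under 0.05) or by DESeq2. Of all 11915 tested genes 6445 had an unadjusted p under 0.05, so that such a p is common in these data. The median log2 fold change of the subunits was 0.0055, beside 0.0093 over all tested genes. Dync2h1, the heavy chain of the motor, had 22.6, 24.7, 20.8 and 23.05 CPM in non-ciliated libraries and 28.05, 32.2, 17.9 and 15.1 CPM in ciliated libraries. The groups overlapped, and the log2 fold change was 0.030 (SE 0.224, adjusted p = 0.925). In the 5 libraries whose deviation rose with GC it was -0.48 (adjusted p = 9.67e-04). Dynlrb1, a roadblock light chain shared with other dyneins, moved the other way between these fits, from -0.019 to 0.37 (adjusted p = 4.43e-05). Wdr34 had a log2 fold change of 0.64 (adjusted p = 0.0448) and Dync2li1 one of 0.46 (adjusted p = 0.00333). Among the light chains, Dynll1 (-0.72, adjusted p = 0.00843), Dynlt3 (-0.58, adjusted p = 0.03798) and Dynlt1b (0.64, adjusted p = 0.0196) passed the p threshold at a log2 fold change below the fold limit. In control clones Dynll1 was called lower (-1.01, adjusted p = 0.007496).

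Of the IFT-A complex, which is needed for return transport and for entry of membrane proteins, 1 of 6 genes was called, Ttc21b. It had 63.4, 50.99, 52.5 and 54.7 CPM without cilia and 13.9, 16.7, 12.9 and 13.6 CPM with cilia. The libraries were separate and the log2 fold change was -1.96 (SE 0.126, adjusted p = 2.79e-06), and the other 5 subunits reached 0.50 at most. In control clones Ttc21b had a log2 fold change of -1.56 (adjusted p = 0.01002). The 20 tested genes of IFT-B and its kinesin motor had a median of -0.12 and the 13 of the BBSome, the coat that carries membrane proteins, one of -0.13. None of either list was called by edgeR (7 and 8 at an unadjusted p under 0.05, beside 6445 of all 11915 tested genes) or DESeq2. Ttc26, the IFT-B member with the largest difference, had a log2 fold change of -0.86 (adjusted p = 8.63e-04), which became -1.08 in the 5 libraries whose deviation rose with GC. The 7 tested transcription factors of ciliary genes, which include the RFX factors, lay between -0.24 and 0.075, and none reached an unadjusted p under 0.05 by edgeR or a call by DESeq2. Foxj1, the factor that switches on motile cilia, was measured at 119 ± 33.9 and 122 ± 48.2 CPM (mean ± SD, n = 4 libraries), with overlap.

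The 20 genes for proteins of the ciliary membrane and their carriers had a median of 0.25. Of the 20, 5 were called higher, against 9.33% of all genes, and 0 lower. Cys1, the ciliary membrane protein cystin that is mutated in a mouse model of polycystic kidney disease, was measured at 2.104, 4.72, 6.099 and 3.66 CPM in non-ciliated and 27.5, 22.2, 29.96 and 22.5 CPM in ciliated libraries. It was 6.15-fold higher with cilia, with no overlap (log2 fold change 2.61, SE 0.271, adjusted p = 4.53e-05). The others were the adenylyl cyclases Adcy3 (1.34) and Adcy6 (1.13), the recycling GTPase Rab11a (1.19) and fibrocystin, Pkhd1 (1.15). Pkhd1 was at 0.87 in the 5 libraries whose deviation rose with GC. The polycystins Pkd1 and Pkd2 had log2 fold changes of 0.060 and 0.53, and Arl13b, whose protein was stained to score cilia, one of -0.32 (adjusted p = 0.0664). At the transition zone, the gate at the ciliary base, 2 of 22 genes were called higher, the kinase gene Nek8 (1.39) and Tctn1 (1.17), and 1 lower, Ahi1 (-1.05), with a median of 0.090. Ahi1 was -0.95 without the non-ciliated library 1, -0.99 without ciliated library 3 and -0.97 without ciliated library 4, and so was not called in those fits.

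Hedgehog signalling, which vertebrate cells route through the cilium, had 12 genes tested (median -0.091). Of the 12, 0 were called higher and 2 lower, against 5.77% of all genes. These were Gli2, a transcription factor of the pathway (from 9.65 ± 0.487 to 3.79 ± 0.777 CPM, mean ± SD, n = 4 libraries, log2 fold change -1.35, adjusted p = 1.28e-04), and the receptor kinase gene Grk5 (-1.87, adjusted p = 1.60e-04). Of the 14 genes known to promote resorption of the cilium or oppose its growth, Aurka, a mitotic kinase that triggers resorption, was called lower. Aurka had 168, 139, 139 and 138 CPM in non-ciliated and 64.4, 71.3, 79.6 and 73.9 CPM in ciliated libraries. The libraries did not overlap, but the log2 fold change of -1.02 (SE 0.1096, adjusted p = 5.65e-05) was -0.94 without the non-ciliated library 1, -0.97 without ciliated library 1 and -0.86 in the 5 libraries whose deviation rose with GC.

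**Figure D3:**
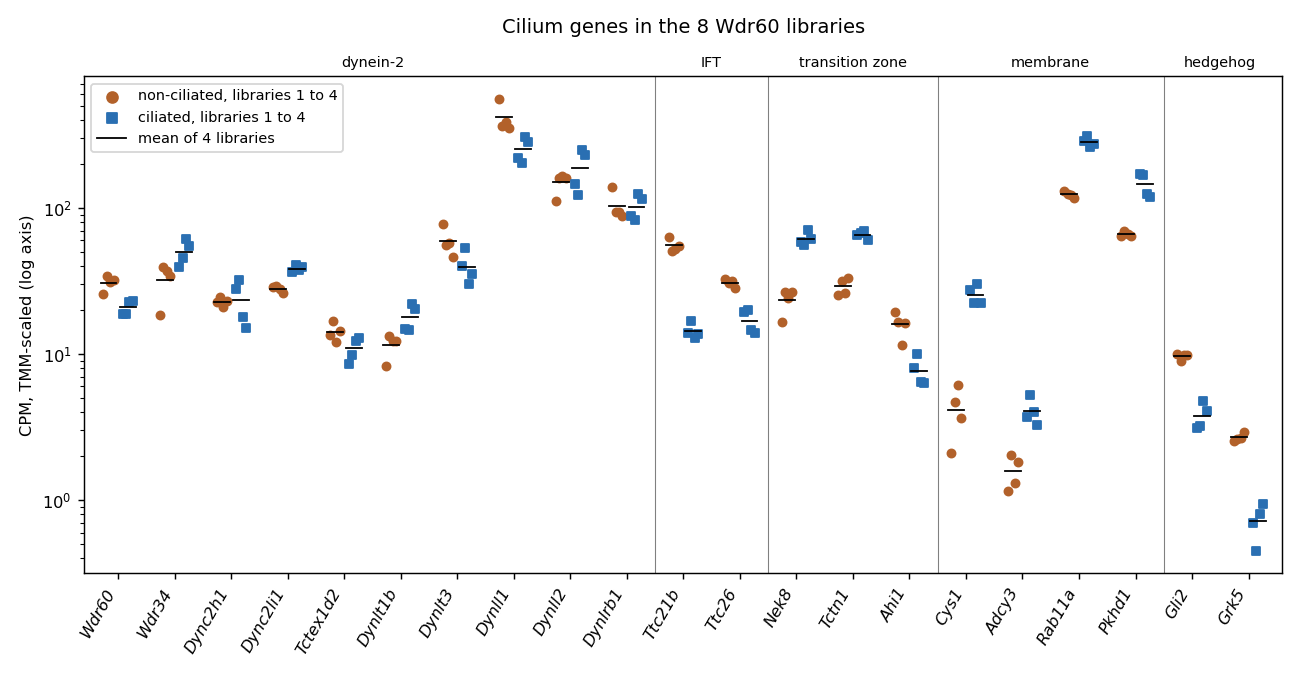
Level in CPM (log axis) of dynein-2 subunits and other cilium genes in each of the 8 Wdr60 libraries, drawn as circles (non-ciliated) and squares (ciliated) with a line at the mean of 4. The points overlap for Dync2h1 and are separate for Cys1 and Ttc21b.

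Few genes of DNA replication and mitosis were called, while Ccnd1 fell. Of 46 replication genes none was called by edgeR (18 at an unadjusted p under 0.05, beside 6445 of all 11915 tested genes) or DESeq2. At an adjusted p under 0.05 with no fold limit 11 were higher and 5 lower (median -0.038). Of all tested genes 25.2% were higher and 22.2% lower at that threshold. Of 44 genes of G2 and mitosis, Aurka alone was called (median -0.27). With no fold limit 3 were higher, against 25.2% of all genes, and 14 lower, against 22.2%. The called count was 0 to 3 with a library or replicate number left out and 2 in the 5 libraries whose deviation rose with GC, where Aurka was not called. Besides Ccnd1, the list of G1 cyclins and inhibitors had Ccng1 called lower (-1.30) and 2 genes called higher of 20 tested. These were Cdkn1b, the p27 inhibitor that accumulates in resting cells, with 99.3, 91.4, 89.5 and 84.04 CPM against 189, 209, 174 and 182 CPM, and Ccng2 (1.13), a cyclin that FoxO factors induce. The Cdkn1b libraries were separate, and its log2 fold change of 1.05 (SE 0.099, adjusted p = 2.60e-05) was 0.99 without ciliated library 2.

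The clustered histone genes, which are copied during S phase, had 34 of 68 members that passed the filter, of which 22 were called lower and 4 higher (median -2.52). Of the 22, 14 were under the limit in every ciliated library, passed only through the non-ciliated libraries and so had to differ, which means that these counts and the median do not describe the list as a whole. With at least 10 counts required in every library, which removes genes that fell to few counts, 1 was called lower and 3 higher, and with no filter 34 and 5. Without non-ciliated library 1, 26 of 39 tested were called lower, and in the 5 libraries whose deviation rose with GC 29 of 42. Their messages lack poly(A) tails in dividing cells and several copies are nearly identical, so a library primed on poly(A) would see a small and uncertain part of them. Whether these libraries were primed on poly(A) was not examined. Hist1h3c had 10.7, 17.1, 15.04 and 16.8 CPM in non-ciliated libraries and 1.64, 0.788, 1.71 and 1.48 CPM in ciliated libraries. That is a log2 fold change of -3.40 (SE 0.248, adjusted p = 5.44e-06). Hist1h2bk went from 6.23 ± 2.25 to 0.4302 ± 0.253 CPM, with the non-ciliated library 1 lowest of its set. The 4 called higher were Hist1h1c (2.59), Hist1h2bc (1.95), Hist1h2bg (1.44) and Hist3h2a (1.35). The summed level of the list overlapped between the states, 78.1 to 130.1 CPM without cilia and 83.8 to 108 CPM with cilia. In control clones 16 of 55 tested were called lower and 4 higher, at a median of -1.23, and 3 of the 16 were under the limit of that fit (0.138 CPM) in every ciliated clone, so these counts are under the same condition.

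Immediate early genes, which serum growth factors switch on within minutes, had a median of -0.63. Of 28 tested, 8 were called lower, against 5.77% of all genes, and 1 higher, against 9.33%. Fos was measured at 102, 82.3, 92.9 and 94.6 CPM in non-ciliated libraries and 5.27, 4.84, 6.66 and 6.95 CPM in ciliated libraries. It was 15.7-fold lower with cilia (log2 fold change -3.96, SE 0.152, adjusted p = 1.86e-07). Fosb, its close relative, had 54.4, 40.8, 51.6 and 66.6 CPM and 2.99, 2.08, 2.72 and 5.42 CPM in the 2 states. Its log2 fold change was -4.001 (SE 0.284, adjusted p = 4.57e-06). The others were Klf2 (-1.82), Egr2 (-1.35), Atf3 (-1.24), Egr1 (-1.19), Jun (-1.07) and Spry4 (-1.14), an inhibitor of receptor tyrosine kinase signalling. Dusp4, a phosphatase that switches off MAP kinases, was higher (1.45). In control clones the median of 30 tested genes was 0.063, with 0 called higher and 1 lower, and the summed level of the list overlapped between the states of the mutant (3510.0 to 4981 CPM without cilia, 2450.5 to 4119.6 CPM with cilia).

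Of the 8 lowered immediate early genes, 6 had a RefSeq promoter window (250 bases before to 50 after the start, GRCm38.p6), and 1 of these, Egr2, held a CArG box, the site bound by serum response factor. Such a box, searched on both strands, stands in 1.6% of the windows of tested genes and 1.81% of all. Of the 5 Egr2 windows, window 2 held a box 72 bases before its start. Windows 3, 4 and 5 shared another, 72, 73 and 133 bases before their starts. The shared stretch (chr10:67537782-67537821, plus strand) is shown because Egr2 is a serum-induced gene that fell, with the box in capitals.
Egr2 promoter: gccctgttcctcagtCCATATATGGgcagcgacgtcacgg

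Targets of YAP and of serum response factor with its myocardin-related partners, which report on cell tension and actin, had a median of -0.084. Of 24 tested, 2 were called lower, against 5.77% of all genes, and 1 higher, against 9.33%. The receptor kinase gene Axl (-1.70) and the matricellular gene Cyr61 (-1.42) fell, and F3, the coagulation tissue factor, rose from 46.7 ± 7.21 to 175 ± 9.75 CPM (1.90, adjusted p = 2.84e-06). In control clones 5 of 28 were called lower and none higher, at a median of -0.51, and F3 had a log2 fold change of 0.14 (adjusted p = 0.854).

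Genes that growth factor signalling holds down through FoxO and MondoA had a median of 0.80, with 13 of 36 called higher, against 9.33% of all genes, and 4 called lower, against 5.77%. Without non-ciliated library 1 the counts were 14 and 5 (median 0.75), and in the 5 libraries whose deviation rose with GC 14 and 3 (median 0.79). Txnip, which slows glucose uptake and binds thioredoxin, had 44.95, 49.9, 44.4 and 48.1 CPM in non-ciliated libraries and 524, 633, 504 and 486 CPM in ciliated libraries. It rose 11.5-fold, with no overlap (log2 fold change 3.52, SE 0.119, adjusted p = 1.28e-07). Pik3ip1, an inhibitor of phosphoinositide 3-kinase, went from 2.997, 4.38, 4.68 and 4.17 to 13.3, 15.4, 16.9 and 15.8 CPM. The libraries were separate, at a log2 fold change of 1.92 (SE 0.164, adjusted p = 1.34e-05). Genes of autophagy were among the others, Gabarapl1 (2.17), Trp53inp1 (1.61) and the starting kinase gene Ulk1 (1.33), as were the insulin receptor substrate gene Irs2 (1.31), the stress-induced mTOR inhibitor Sesn1 (1.15) and 3 Ypel genes (1.39 to 1.42 in Ypel2, Ypel3 and Ypel5). The 4 that fell were the transcription factor genes Klf6 (-1.35), Klf4 (-1.06) and Cited2 (-1.31) and the antiproliferative gene Tob1 (-1.05). In control clones 10 of 38 were called higher, against 2.49% of all genes there, and none lower, at a median of 0.96.

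Of the 13 genes called higher, 11 had a promoter window, and 4 of these held the FOXO site GTAAACA on either strand (Hbp1, Sesn1, Txnip and Ypel3). It stood in 3.03% of the windows of tested genes and 4.05% of all. The matches of Sesn1 and Ypel3 did not end before the start. A CCAAT box stood in 8 of the 11, against 43.3% of tested genes. The FOXO motif was added to the search after the data were seen, and a match describes the sequence and does not show binding. The stretches of Txnip (chr3:96557821-96557857, plus strand, 121 bases before the start) and Hbp1 (chr12:31950373-31950409, minus strand, 149 bases before the start), which encodes a repressor of cell cycle genes, show the motif in capitals.
Txnip promoter: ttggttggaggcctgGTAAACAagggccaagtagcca
Hbp1 promoter: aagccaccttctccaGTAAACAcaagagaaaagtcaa

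Lysosomal and autophagy genes had 8 of 31 called higher, against 9.33% of all genes, and 1 lower, against 5.77% (median 0.50). In control clones 4 of 33 were called higher and none lower (median 0.66). The protease gene Ctsh (0.731 ± 0.282 to 2.14 ± 0.953 CPM, log2 fold change 1.55, adjusted p = 0.00855), the autophagy adaptor Sqstm1 (1.17) and the autophagosome protein Map1lc3b (1.17) were the most raised, and the glucuronidase Gusb fell (-1.16). Ctsh was not called without replicate 4 (1.17, adjusted p = 0.0620). Without the non-ciliated library 1, 6 were called higher. Growth factors and their binding proteins had 5 of 19 higher and 1 lower (median 0.57), with 2 higher in the 5 libraries whose deviation rose with GC. Igfbp7, an insulin-like growth factor binding protein, was measured at 12.8, 10.97, 11.5 and 11.4 CPM without and 94.3, 71.6, 145 and 141 CPM with cilia. Its rise (3.28, SE 0.2301, adjusted p = 4.18e-06) was the largest of the list, whose other calls, Egf (1.14), Fgf1 (1.13), Tgfa (1.02), Pdgfb (1.003) and the lowered Btc (-1.05), lay close to the fold limit. Egf was 0.99 without ciliated library 2, and Btc was -0.96, -0.995 and -0.90 without non-ciliated library 1, ciliated library 1 and ciliated library 3, at which they were no longer called. Btc had a log2 fold change of 1.283 in control clones (adjusted p = 0.429).

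**Figure D4:**
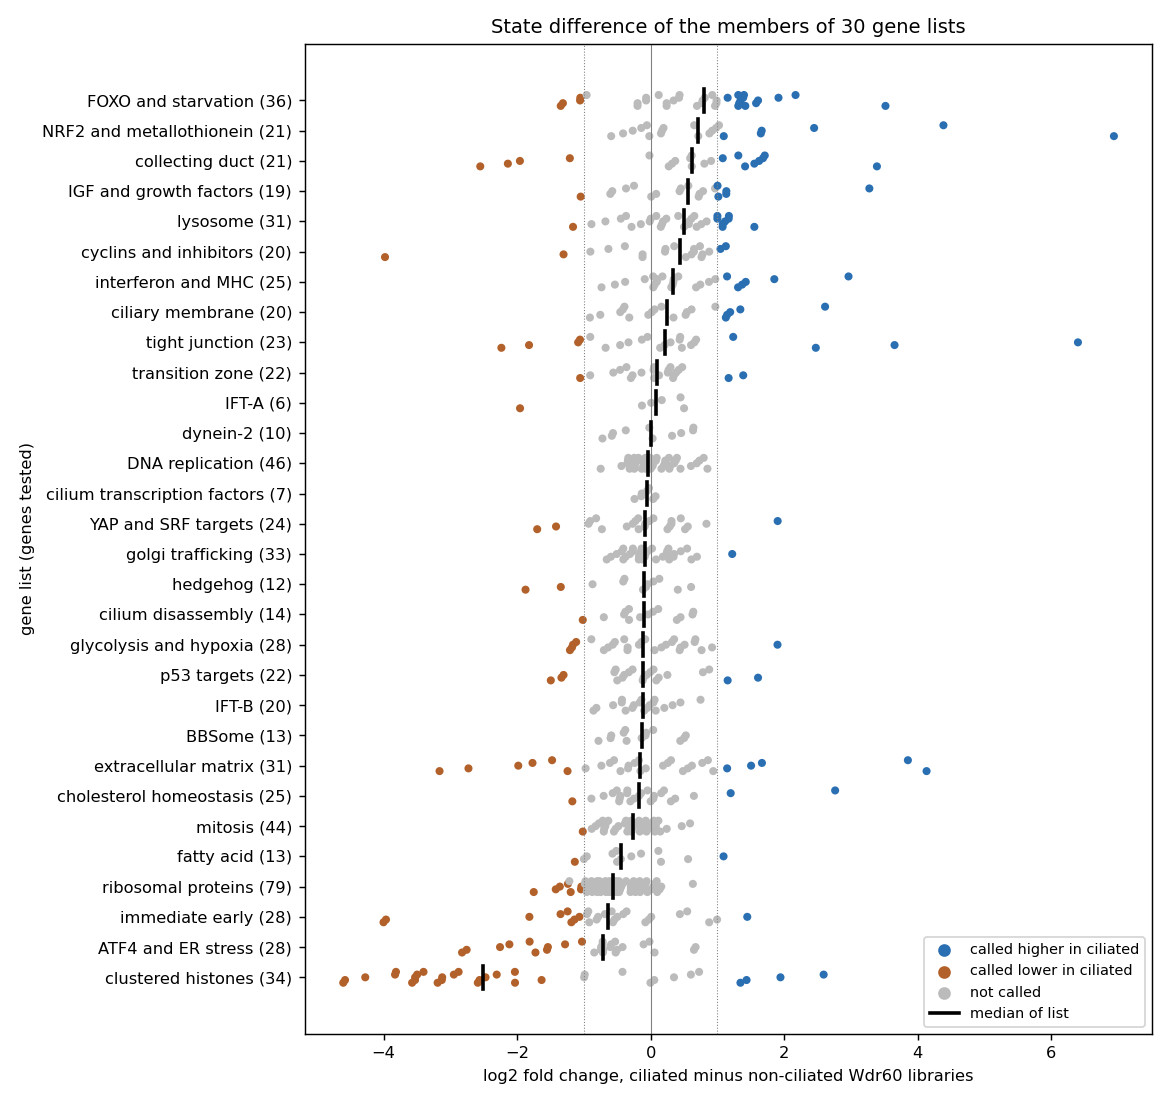
Log2 fold change (ciliated minus non-ciliated Wdr60 libraries) of each tested member of 30 gene lists, with 1 point per gene and colour for genes called higher, called lower or not called, and a black bar at the median of the list. FOXO and starvation genes have a median of 0.80 and the clustered histones one of -2.52, and dotted lines mark the fold limit.

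Genes that ATF4 controls or that the stressed endoplasmic reticulum induces had 10 of 28 called lower, against 5.77% of all genes, and 0 higher (median -0.72). The largest changes were in amino acid synthesis. Psat1, an enzyme of serine synthesis, had 681, 635, 645 and 606 CPM in non-ciliated and 88.2, 89.02, 93.2 and 109.5 CPM in ciliated libraries. It fell 6.76-fold (log2 fold change -2.76, SE 0.107, adjusted p = 1.90e-07), with no overlap. Asns, asparagine synthetase, had 281, 278, 249 and 252 CPM and 60.5, 52.95, 49.5 and 59.03 CPM in the 2 states. Every ciliated library lay below every non-ciliated one (-2.26, SE 0.106, adjusted p = 5.39e-07). Cth (cystathionine gamma-lyase, -2.82), Trib3 (a pseudokinase, -2.12), Aldh18a1 (proline synthesis, -1.81), Shmt2 (mitochondrial serine hydroxymethyltransferase, -1.72), Psph (serine synthesis, -1.55), Chac1 (glutathione breakdown, -1.54), the chaperone gene Pdia4 (-1.28) and the amino acid transporter gene Slc7a5 (-1.03) also fell. Of these, 1 is a chaperone of the endoplasmic reticulum, and Hspa5, the chief chaperone of that compartment, had a log2 fold change of -0.74 (adjusted p = 1.29e-04). Without non-ciliated library 1, and in the 5 libraries whose deviation rose with GC, 10 were likewise called lower. In control clones 5 of 28 were called lower, against 2.03% of all genes there (median -0.68).

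Of the 10 lowered genes 8 had a promoter window. Of these, 3 (Asns, Chac1 and Trib3) held TGATGNAA, the composite element that ATF4 and C/EBP factors bind. It stood in 2.58% of the windows of tested genes and 4.51% of all (both strands, motif added after the data were seen). The match of Trib3 did not end before the start. The stretches of Asns (chr6:7693210-7693247, minus strand, 23 bases before the start) and Chac1 (chr2:119351034-119351071, plus strand, 193 bases before the start, with the element read on the other strand) are given with the element in capitals.
Asns promoter: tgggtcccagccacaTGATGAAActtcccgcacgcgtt
Chac1 promoter: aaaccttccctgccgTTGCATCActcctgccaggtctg

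Ribosomal protein genes, whose messages growth factor signalling favours, had a median of -0.57 over 79 tested. Of the 79, 7 were called lower, against 5.77% of all genes, and 0 higher. Rplp0, a stalk protein, went from 2420.4, 2618, 2847 and 2710.0 CPM to 929, 910.3, 1388 and 1263 CPM, without overlap (-1.24, SE 0.1503, adjusted p = 1.19e-04). Many of these genes have processed pseudogenes that can take their reads, and the count depended on the libraries. It was 16 lower without ciliated library 3 and 12 without ciliated library 4, and in the 5 libraries whose deviation rose with GC 2 were lower and 1 higher, at a median of -0.28. Rps2 had 456, 1048, 1078 and 1090.0 CPM in non-ciliated and 237, 357, 433 and 403 CPM in ciliated libraries. In Rps2 the non-ciliated library 1 stood at less than the other 3 of its state. In control clones 7 of 79 were called lower and none higher, with a median of -0.47.

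In glycolysis and the hypoxia response, 4 of 28 were called lower and 1 higher (median -0.11). Phosphoglycerate mutase Pgam1 (-1.21), hexokinase Hk2 (-1.18), lactate dehydrogenase Ldha (-1.16) and the collagen hydroxylase P4ha1 (-1.12) fell, and Eno2, the neuronal enolase, rose (1.90). Hk2 was -0.99 without ciliated library 2, and Hk2 (-0.94) and Ldha (-0.90) were not called in the 5 libraries whose deviation rose with GC. Cholesterol genes had 2 of 25 higher and 1 lower (median -0.17), and those of fatty acid synthesis 1 of 13 higher and 1 lower (median -0.45). The fatty acid counts were 0 to 1 higher and 1 to 3 lower with a library or replicate number left out, and 0 higher and 3 lower in the 5 libraries whose deviation rose with GC. Mylip, which degrades the LDL receptor and is induced when sterols are plentiful, rose from 8.21 ± 0.519 to 55.9 ± 5.23 CPM (2.77, adjusted p = 2.73e-07), as did Insig1 (1.20), which holds back the sterol response. Mvk, mevalonate kinase, fell (-1.17), and so did the desaturase Scd1 (-1.14). The lipid regulator Srebf1 rose (1.09), but was at 0.93 without the non-ciliated library 1. In control clones the median of the cholesterol list was 0.41, with 3 called higher and 0 lower.

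Among p53 targets 3 of 22 were called lower, Zmat3 (-1.49), Plk2 (-1.34) and Ccng1, and 2 higher, Trp53inp1 and Sesn1, both members of the FoxO list as well (median -0.11), with 4 higher in the 5 libraries whose deviation rose with GC. In the list of Golgi coats and trafficking genes, which includes genes that the study picked on libraries of this series and so gives no independent evidence, 1 of 33 was called higher, the coatomer gene Copz2 (1.22), and 0 lower by edgeR (12 at an adjusted p under 0.05 in either direction) or DESeq2, with a median of -0.088.

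Of 23 junction genes 4 were called higher, against 9.33% of all genes, and 4 lower, against 5.77% (median 0.21). The raised ones were Cldn8, the kidney cadherin Cdh6, the pore-forming claudin Cldn2 and the epithelial adhesion molecule Epcam (1.24). Of these, Cldn8 passed the filter only through the ciliated libraries and so had to differ. Cdh6 had 74.03, 80.4, 58.98 and 53.99 CPM in non-ciliated and 928, 803, 824 and 813 CPM in ciliated libraries. It was 12.6-fold higher with cilia (3.66, SE 0.1500, adjusted p = 2.58e-07). Cldn2 had 4.59, 5.23, 4.62 and 3.66 CPM and 23.3, 26.5, 27.5 and 23.7 CPM in the 2 states, likewise without overlap (2.48, adjusted p = 1.54e-06). The barrier claudin Cldn1 (-2.24), the mesenchymal N-cadherin Cdh2 (-1.82), Cdh3 (-1.09) and Pvrl1 (-1.06) fell. E-cadherin, Cdh1, had a log2 fold change of 0.44 (adjusted p = 0.0112).

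Matrix genes were called lower in 6 of 31 and higher in 5 (median -0.15), of which Loxl1, Col6a2 and Col4a2 passed the filter only through the state in which they were high and had to differ. The lowered genes were the lysyl oxidase relative Loxl1 (-3.16), Col6a2 (-2.73), fibronectin Fn1 (-1.98), Col6a1 (-1.77), the protease inhibitor Timp1 (-1.48) and Col5a1 (-1.24). The raised ones were the nidogen gene Nid2 (4.13), Col4a2 (3.85, from 4 to 72 counts over 4 libraries), Col4a4 (1.67), Col4a3 (1.51) and Agrn (1.15). Fn1 went from 3249, 2921, 2701 and 2997 CPM in non-ciliated to 842, 642, 765 and 754 CPM in ciliated libraries. The groups of Fn1 did not overlap (SE 0.113, adjusted p = 1.44e-06). In control clones Col4a2 had a log2 fold change of -1.60 (adjusted p = 0.361), opposite in sign.

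Markers of the epithelium were present in both states, all 12 tested, with Cdh16 (kidney-specific cadherin, 1.71) and Epcam higher and the keratin gene Krt7 lower (-1.30). The label of collecting duct was met in part. Of 12 principal cell markers 4 passed the filter, and of these 2 were called higher (Scnn1a and Hsd11b2) and 1 lower (Aqp3), while 1 was higher and 2 lower of 5 tested without non-ciliated library 1. Tfcp2l1, the most abundant of the 4, stood at 90.2 ± 5.67 and 136 ± 29.2 CPM and was not called. Aqp2, the vasopressin-regulated water channel that defines principal cells, had 1 count in the non-ciliated and 0 in the ciliated libraries, so this defining marker was near 0 in both states. A wider list of collecting duct and tubule genes, which shares members with these markers, had a median of 0.62 over 21 tested. Of the 21, 8 were called higher, against 9.33% of all genes, and 4 lower, against 5.77%. Among the called genes, Dcdc2a and Aqp3 passed the filter only through the state in which they were high and had to differ. The raised genes included Dcdc2a (3.39), a microtubule protein of cilia, the taurine transporter gene Slc6a6 (1.68), the tonicity factor Nfat5 (1.63), the mineralocorticoid receptor Nr3c2 (1.42), Hsd11b2 (1.31), which protects that receptor from cortisol-like steroids, and the sodium channel subunit Scnn1a (1.08). Scnn1a was 0.98 without non-ciliated library 1, 0.99 without ciliated library 1 and 0.88 in the 5 libraries whose deviation rose with GC. The serum-induced kinase Sgk1 fell from 124, 77.8, 100.1 and 110.1 CPM to 28.6, 27.5, 21.9 and 28.1 CPM. Its libraries were separate (-1.96, SE 0.159, adjusted p = 1.01e-05), and Gata2 (-2.14) and the water channel genes Aqp3 (-2.55) and Aqp1 (-1.21) fell too.

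Among markers of other cells, 1 of 7 of intercalated cells passed the filter, the anion exchanger gene Slc26a4 (3.19), which passed only through the ciliated libraries and had to differ, and the summed level of that list was 0.34 to 0.51 CPM without and 2.37 to 3.60 CPM with cilia. Of 9 proximal tubule markers Cubn (-2.13) was lower and its partner receptor Lrp2 (1.05) higher, with sums of 30.1 to 38.9 and 17.1 to 27.2 CPM. Lrp2 was 0.94 without non-ciliated library 3, 0.97 without ciliated library 1, 0.98 without ciliated library 2 and 0.79 in the 5 libraries. The 9 fibroblast markers summed to at most 5.18 CPM and the 8 endothelial ones to at most 6.42 CPM, with Flt1 (-1.46) called lower. Of 9 leukocyte markers 3 passed, and their list summed to 37.3 to 48.1 CPM without cilia and 268 to 327 CPM with cilia. Csf1r, the receptor of colony stimulating factor 1, made up most of this, with 28.9, 33.7, 25.3 and 24.6 CPM in non-ciliated and 276, 302, 265 and 241 CPM in ciliated libraries. The groups did not overlap (3.27, SE 0.135, adjusted p = 2.58e-07), and Cd14 rose too (1.17). The defining leukocyte marker Ptprc stood at 0.398 ± 0.222 and 0.217 ± 0.151 CPM, and Itgam and Lyz2 were near 0 as well.

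Interferon-stimulated and antigen presentation genes had 6 of 25 called higher, against 9.33% of all genes, and 0 lower (median 0.34). Ifit3 (2.97), Irf7 (1.85), Oasl2 (1.43) and Ifit1 (1.37), all induced by type I interferon, rose with the peptide loading factor Tapbp (1.31) and Ifi35 (1.15). Ifit3 had 38.1, 35.98, 31.6 and 30.2 CPM in non-ciliated and 256, 246, 279 and 280.1 CPM in ciliated libraries, without overlap (SE 0.114, adjusted p = 1.86e-07). In control clones 2 of the list were called higher and 0 lower, with a median of 0.75.

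NRF2 and metallothionein genes, which answer oxidants and metals, had 6 of 21 called higher and 0 lower (median 0.72). Of the 6, Gsta3 and Nqo1 were under the filter limit in every non-ciliated library and had to differ, so the count is not read against the background. It was 9 in the 5 libraries whose deviation rose with GC (median 0.87). Gclc, the catalytic subunit for the limiting step of glutathione synthesis, had 92.3, 55.3, 59.2 and 64.5 CPM in non-ciliated and 415, 393, 305 and 370.2 CPM in ciliated libraries. The libraries were separate (2.45, SE 0.178, adjusted p = 5.31e-06). Nqo1 (4.39, from 9 to 222 counts), the metallothionein gene Mt1 (1.66), the transferase gene Gstm1 (1.65) and the thioredoxin reductase Txnrd1 (1.10) rose with Gsta3. Of the 5 with a promoter window, Gsta3 and Txnrd1 held the antioxidant response element TGACNNNGC, a motif added after the data were seen that stands, on either strand, in 17.4% of the windows of tested genes and 14% of all. The Gsta3 stretch is shown because this gene had the largest rise (chr1:21240449-21240487, plus strand, 121 bases before the start), with the element in capitals. In control clones the list had a median of 1.07 and 1 of 22 called higher.
Gsta3 promoter: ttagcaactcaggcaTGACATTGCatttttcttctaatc

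The same state difference was measured in control clones, which share no library with the mutant, by summing the libraries of each clone (4 clones in each state, 14361 genes tested). There 357 genes (2.49%) were called higher and 292 (2.03%) lower. With 1 control clone left out these counts ran from 79 and 68 (without non-ciliated clone 1) to 515 and 397 (without non-ciliated clone 2). Of the 1112 genes that rose in the Wdr60 mutant, 1062 had a control estimate above 0, 261 were called higher and 0 lower in controls. Of the 687 that fell, 663 had a control estimate below 0, 198 were called lower and 0 higher. Across the 11915 genes in both fits the 2 sets of log2 fold changes had a Pearson r of 0.81 and a Spearman rho of 0.84, as a description over genes, which are not independent replicates. Txnip went from 67.7 ± 21.9 to 446 ± 139 CPM in controls (mean ± SD, n = 4 clones, log2 fold change 2.72, adjusted p = 0.00844), beside 3.52 in the mutant. Ccnd1 had 268 ± 185 and 37.00 ± 35.98 CPM in controls and was not called there (-2.86, adjusted p = 0.1802), with overlap between the clones, beside -3.98 in the mutant.

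**Figure D5:**
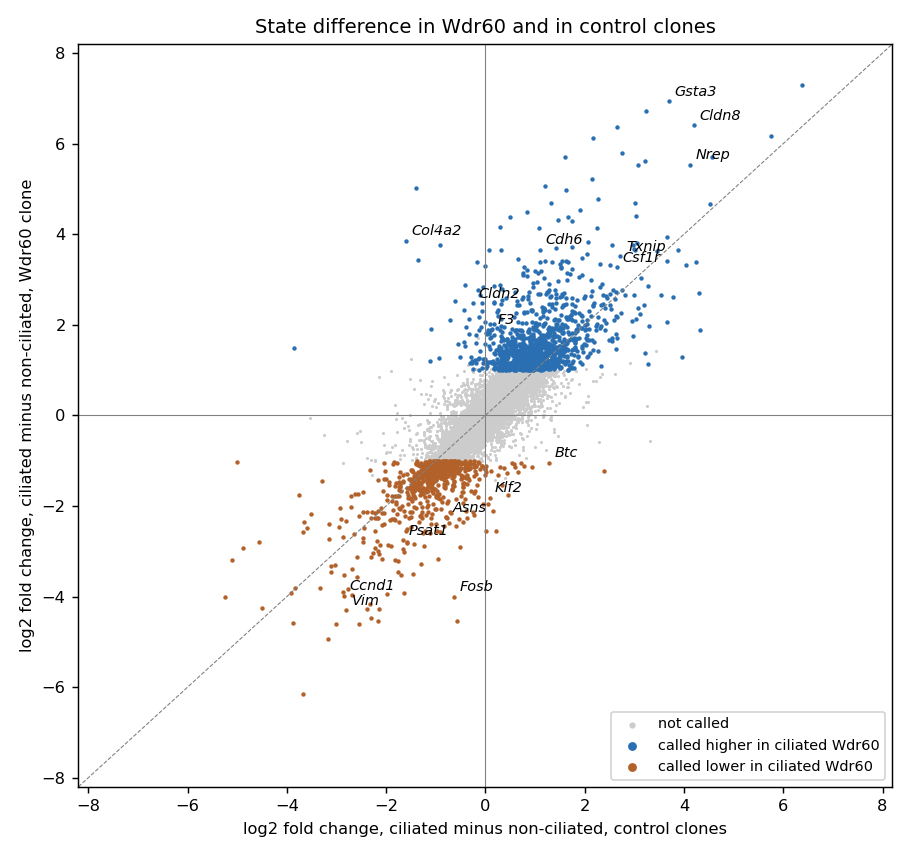
Log2 fold change between ciliated and non-ciliated cells in the Wdr60 clone (y axis) against control clones (x axis), 1 point per gene, coloured by the call in the Wdr60 libraries, with a dashed line of equal values. Most called genes lie on the same side of 0 in both (1062 of 1112 higher and 663 of 687 lower), and Btc, Col4a2 and Klf2 lie away from the line.

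The difference between the mutant and the control state difference was tested on the clone sums. No gene was called in this test by edgeR, and 78 (0.543%) had an unadjusted p under 0.05, while DESeq2 called none and had 95. With no difference at all, a share of 0.05 of the genes would lie under that p. The test was thus conservative, and the absence of calls does not show that the mutant responded like the controls. With a single mutant clone in each state, that fit assumes that the mutant sums vary like the control clones. With the 4 libraries of each clone taken as samples, which counts technical replicates as independent, 28 genes were called with a more positive and 7 with a more negative difference in the mutant. Examples of these, chosen after their values were seen, are Adgrg1, Klf2 and Asns. Asns had a log2 fold change of -0.77 in controls and -2.26 in the mutant. Its difference on the clone sums was -1.52, and did not reach an unadjusted p under 0.05 there. Adgrg1, an adhesion receptor, had clone-sum means of 268 ± 39.2 CPM in non-ciliated and 769 ± 229.9 CPM in ciliated controls, beside 131 ± 15.04 and 1266 ± 79.6 CPM in the mutant libraries. Its log2 difference between the responses was 1.71 (unadjusted p = 0.0133). Klf2, a serum-responsive factor of quiescence, had 16.7 ± 3.52 and 17.6 ± 9.07 CPM in controls, a log2 fold change of 0.083 against -1.82 in the mutant, and an unadjusted p of 0.0477 for the difference. Fosb (-0.64 in controls, -4.001 in the mutant, unadjusted p = 0.201) and Cldn2 (-0.25 and 2.48, unadjusted p = 0.183) had wider gaps in value, also without a call.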

How the data were processed

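Total RNA of the clones was sequenced as paired-end libraries. Alignment to GRCm38/mm10 was done by the authors with Rsubread (v1.28.1, under R v3.4.4), and featureCounts assigned reads to gene symbols. The deposited files hold raw counts, not normalized. Strand setting and treatment of reads that map to several genes are not given in the sources used here, so overlapping genes and near-identical copies are uncertain. The authors' own tests used DESeq2 v1.18.1.

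Groups came from the sample labels. Of 24421 symbols 24300 (99.5%) matched RefSeq, which gave coordinates. Tests ran in edgeR 4.0.16 (R 4.3.3): filterByExpr, TMM, estimateDisp, glmQLFit and glmQLFTest (2-sided), Benjamini-Hochberg adjustment over all tested genes, and a call where the adjusted p was below 0.05 and the difference 2-fold or more. CPM are TMM-scaled, and SE is the log2 fold change divided by the square root of F. For controls and for the difference from controls, the libraries of each clone were summed (1 Wdr60 and 4 control clones in each state). Library totals of 16092399 to 19779438 counts set the precision. The fits were also run on simulated data, and no result above rests on that.

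Alternatives were DESeq2 1.42.0, RLE size factors, a filter of at least 1 count in any or 10 counts in every library, other thresholds, quality weights (limma 3.58.1, voom), a replicate block, and leaving out each library, replicate number or clone. The fits on 5 libraries and with a term for the GC sign were added after the data were seen. Members and gene lists were chosen with earlier results of these data known. Named genes were the dynein-2 subunits, up to 4 called members of each list with the largest log2 fold change (2 where none was called), and the 10 highest and lowest called genes with at least 5 CPM and no overlap; others called in a list were named to account for its count. Some items are not reported here. Ontology terms, images and human data were not analysed here.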

Additional observations from a re-analysis of the deposited data

Results flagged for a closer look

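Within the 4 libraries of a state, a gene was singled out where the gap of 1 library's log2 CPM (with edgeR's prior count) to the nearest other library, divided by the range of the 4 log2 values, passed Dixon's 95% critical value of 0.829. Among 256 tests on 123 named genes and library measures 14 passed, 11 of them in non-ciliated library 1, and chance alone would flag about 1 in 20 groups. Of the dynein-2 light chains, Dynlrb1 in that library stood at 139 CPM against 88.5 to 94.1 (ratio 0.863), Dynll2 at 111 against 160.0 to 166 (0.906) and Dynlt1b at 8.29 against 12.2 to 13.2 (0.829). The mitotic kinase gene Aurka stood at 168 CPM against 138 to 139 (0.959). Lipid genes deviated both ways, Insig1 with 125 CPM against 143 to 144 (0.929), Scd1 with 231 against 183 to 187 (0.888) and Srebf1 with 59.9 against 99.7 to 109 (0.848).

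Mt1, a metallothionein gene, was at 71.9 CPM in non-ciliated library 1 against 42.2 to 46.2 (0.833), and the ribosomal protein gene Rps2 at 456 against 1047 to 1090.0 (0.954). Of the histone genes, Hist1h2bk was at 2.87 CPM there against 7.01 to 7.52 (0.926) and Hist1h2bj at 1.02 against 1.93 to 2.08 (0.892). Outside that library, Hist1h2bj in ciliated library 1 was at 0.117 CPM against 0.0493 to 0.0563 (0.879), a difference of few counts. Sgk1 in ciliated library 3 was at 21.9 CPM against 27.5 to 28.6 (0.850), and Gli2 in non-ciliated library 2 at 8.93 against 9.85 to 9.95 (0.910). The part of library quality in these values was not tested.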

How the results depend on the processing

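The counts of 1112 higher and 687 lower genes stayed within 1.5 times under DESeq2 (1097 and 711), RLE size factors (1087 and 701), quality weights (1082 and 677) and both added fits, and moved to 2999 and 2643 with no fold limit. Leaving out a single library gave 1091 to 1170 higher and 667 to 771 lower, and leaving out a replicate number 1050 to 1193 and 646 to 747. With the replicate block the counts were 1124 and 716. The numbers do not pair the libraries, since same-numbered deviations correlated at 0.40, -0.30, 0.38 and 0.27, and non-ciliated library 1 was most like ciliated library 2 (0.53).

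Control counts depended on the clones, at 79 to 515 higher and 68 to 397 lower with 1 clone left out, the lowest without non-ciliated clone 1 and the highest without non-ciliated clone 2. They were 188 and 131 without ciliated clone A4, 152 and 114 without H12, 90 and 91 without non-ciliated clone 3, and 208 and 188 without AB. DESeq2 on clone sums called 634 higher, libraries as samples gave 971 higher and 664 lower, and no fold limit gave 753 and 905. The difference from controls went from 0 to 28 higher and 7 lower genes with libraries as samples, and was 0 under every other alternative run.

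Of 123 named genes, 3 changed sign, all uncalled with all 8 libraries. Dync2h1 (0.030) was -0.029 with the replicate block, -0.35 with quality weights, -0.48 in the 5 libraries, -0.16 with the GC term, and -0.17 (without ciliated library 2) to 0.20 with a library or replicate number left out, below 0 also without replicates 1 and 2, non-ciliated library 3 and ciliated library 1. Dynlrb1 was 0.25 with quality weights, 0.37 in the 5 libraries, and -0.18 to 0.22 with a library or replicate number left out, above 0 without replicates 1 and 2, non-ciliated library 1 and ciliated libraries 1 and 2. Rfx1 was -0.25 to 0.0022, above 0 without replicate 2. The causes were not tested. Genes listed at a few counts, such as Gsta3, Nqo1 and Col4a2 without cilia, have fold changes that depth limits.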
